A study of Mus musculus with 6 samples.

Results

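The mitochondrial ribosomal protein genes were taken by name from the liver count table. A gene belonged to the group when its mouse symbol began with Mrpl or Mrps followed by a digit, and names that carry -ps, which mark pseudogenes, were left out. The rule found 78 of the 55487 genes in the table, all annotated as protein-coding, and 77 of them had enough counts to be tested. Mrpl53 was the exception, with 0 counts in every library. The marker genes of the group, Mrpl12 and Mrps12, were both present in every library. Of the 78 genes, 51 encode proteins of the large subunit and 26 encode proteins of the small subunit. The numbers in the names do not always follow the subunit: Mrps30 and Mrps18a carry small-subunit names but encode large-subunit proteins. Mrps36 carries a ribosomal name but encodes a component of the alpha-ketoglutarate dehydrogenase complex, so it was counted in neither subunit.

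Mitochondria translate the few proteins encoded by their own DNA, all of them subunits of the respiratory chain and the ATP synthase, on a ribosome of their own. Its rRNAs are transcribed in the organelle, whereas its proteins are encoded in the nucleus, made on cytosolic ribosomes and imported. Some of these proteins descend from the proteins of the bacterial ribosome, and others were added in the mitochondrial lineage. Liver is rich in mitochondria, and hepatocytes use the respiratory chain to oxidize fatty acids.

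The question was how these genes differed between livers in which the E3 ubiquitin ligase gene Rnf10 was silenced and control livers. The livers came from 6 male wild-type C57BL/6J mice that were kept on normal chow and killed at 17 weeks of age. Of these, 3 had received GalNAc-siRnf10, an siRNA against Rnf10 that the study calls GalNAc-siRnf10-2, by subcutaneous injection, and 3 had received the control siRNA GalNAc-siNC. The N-acetylgalactosamine ligand directs both siRNAs to hepatocytes through the asialoglycoprotein receptor, while the RNA came from whole liver, so fewer cells of a type and less RNA per cell cannot be told apart. Each mouse gave 1 library, and all 6 carry the same batch label.

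Total counts were between 26854377 and 33058645 per library. Normalized counts, which are counts scaled to a common library size with TMM factors, are given per mouse in the order 1, 2, 3. Rnf10 was at 3869, 4536 and 4040 normalized counts in the GalNAc-siNC mice and at 1738, 1820 and 1793 in the GalNAc-siRnf10 mice, a log2 fold change of -1.22 ± 0.07 (SE, edgeR quasi-likelihood test, adjusted p = 3.29e-09). The library of GalNAc-siNC mouse 1 stood apart from its group. The chi-square of counts per gene was 30.71 and 30.04 between it and the other two GalNAc-siNC mice, against 4.70 to 10.3 for the other pairs of mice within a group. Where leaving out this mouse changed a call, a direction, or a value by over 1.5 times, many results also carry the value without it. Not every such result does, so a result given without such a value can still have moved.

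The promoters of these genes are shown first, since members in different places of the genome carry the same short motifs there. RefSeq entries with 250 bases before and 50 bases after a start site (GRCm38.p6) existed for 69 of the 78 genes, with 75 promoters in all. No entry was matched for Mrpl13, Mrpl15, Mrpl19, Mrpl38, Mrpl4, Mrpl54, Mrps28, Mrps34 and Mrps35. The ETS motif CCGGAAG is the kind of sequence bound by GABP, a regulator of nuclear genes for mitochondria. It was found in 34.7% of the members' promoters, 16.6% of the promoters of tested genes and 8.86% of all promoter entries. The last set holds all 32851 RefSeq entries with a gene symbol, which were not matched to the count table. The YY1 motif ATGGCGG was found in 17.3%, 7.51% and 4.05% of the same sets, and the NRF1 motif GCATGCG in 10.7%, 6.03% and 3.58%. The NF-Y motif CCAAT was found in 40.0%, 37.5% and 37.4%. The TATA motif TATAAA, searched on the gene strand only, was found in 5.33%, 4.68% and 8.32%. The other motifs were searched on both strands. GCATGCG contains a stretch that reads the same on both strands, so neighbouring NRF1 matches can overlap, and no motif searched contains another. A match is a run of letters, not a measured binding site.

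The promoters of 5 members are given 5′ to 3′ on the gene's own strand, with the motif matches in capitals. Mrpl12 and Mrps12 are the marker genes, Mrpl51 and Mrpl18 are called genes with an ETS match, and Mrps30 is the gene that fell. Mrpl12 lies at chr11:120484387-120484686, plus strand, Mrps12 at chr7:28741772-28742071, minus strand, Mrpl51 at chr6:125191950-125192249, plus strand, Mrpl18 at chr17:12916042-12916341, minus strand and Mrps30 at chr13:118387203-118387502, minus strand. Each window holds 250 bases of sequence upstream of the RefSeq start site and the first 50 bases of the transcript.
Mrpl12: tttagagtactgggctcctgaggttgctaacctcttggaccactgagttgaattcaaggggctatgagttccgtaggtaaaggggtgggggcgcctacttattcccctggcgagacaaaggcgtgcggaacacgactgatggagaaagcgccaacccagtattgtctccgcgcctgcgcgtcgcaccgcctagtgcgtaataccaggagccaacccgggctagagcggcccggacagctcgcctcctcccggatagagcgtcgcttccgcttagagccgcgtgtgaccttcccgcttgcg
Mrps12: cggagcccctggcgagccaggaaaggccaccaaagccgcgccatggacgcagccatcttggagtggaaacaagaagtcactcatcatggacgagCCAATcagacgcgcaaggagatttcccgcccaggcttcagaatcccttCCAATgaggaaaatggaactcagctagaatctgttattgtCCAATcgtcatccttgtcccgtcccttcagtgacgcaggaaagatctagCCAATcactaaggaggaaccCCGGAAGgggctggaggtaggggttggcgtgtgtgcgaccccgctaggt
Mrpl51: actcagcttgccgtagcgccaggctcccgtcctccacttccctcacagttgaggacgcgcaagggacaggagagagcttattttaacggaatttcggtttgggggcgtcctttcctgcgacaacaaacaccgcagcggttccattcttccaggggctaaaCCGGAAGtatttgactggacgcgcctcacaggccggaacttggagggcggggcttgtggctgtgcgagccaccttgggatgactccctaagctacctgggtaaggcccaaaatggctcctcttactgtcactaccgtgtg
Mrpl18: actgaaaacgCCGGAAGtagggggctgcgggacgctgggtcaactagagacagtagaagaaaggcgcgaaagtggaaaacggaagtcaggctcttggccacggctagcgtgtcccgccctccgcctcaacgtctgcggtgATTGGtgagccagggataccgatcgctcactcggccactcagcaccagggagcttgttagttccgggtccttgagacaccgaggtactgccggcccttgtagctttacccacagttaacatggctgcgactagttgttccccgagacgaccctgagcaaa
Mrps30: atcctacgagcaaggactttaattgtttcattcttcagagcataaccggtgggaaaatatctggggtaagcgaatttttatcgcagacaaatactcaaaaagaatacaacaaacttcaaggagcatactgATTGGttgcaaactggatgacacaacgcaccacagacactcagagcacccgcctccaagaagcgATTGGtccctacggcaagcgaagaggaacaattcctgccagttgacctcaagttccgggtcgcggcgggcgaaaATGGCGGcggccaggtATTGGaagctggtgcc

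The Mrps12 window held 4 NF-Y matches, the first bases of which lay at positions -156, -108, -68 and -19 from the start site, and an ETS match at position 2. This stretch is shared: the divergent gene Sars2, which encodes the mitochondrial seryl-tRNA synthetase, starts 172 bases from Mrps12 on the other strand. The Mrps30 window held 3 NF-Y matches and a YY1 match at position 19, just inside the transcript. Mrpl51 held an ETS match at position -90 and Mrpl18 one at -240, with an NF-Y match at -110. The Mrpl12 window held none of these letter runs. Of the called genes described in the following paragraphs, 8 had a promoter entry, and Mrpl18 and Mrpl51 were the ones with an ETS match. Mrpl20, Mrpl23, Mrpl30, Mrpl47, Mrps10 and Mrps30 had none. Over all members 34.7% of promoters held this motif, and whether it goes with the calls was not tested. Among the factors named for these motifs, Gabpa (log2 fold change 0.06 ± 0.09, adjusted p = 0.714), Yy1 (0.11 ± 0.07, adjusted p = 0.335) and Nrf1 (-0.002 ± 0.12, adjusted p = 0.993) did not pass the edgeR test.

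Divergent gene pairs of this kind are given as a share, with no test. A protein-coding gene started head to head within 500 bases of 25 of the 78 members (32.1%), against 1649 of 12348 tested protein-coding genes (13.4%). The members Mrpl46 and Mrps11 formed such a pair with each other, with start sites 412 bases apart. Their exons share 173 bases on opposite strands, and the strand setting of the counting is not given, so their values are uncertain. Their log2 fold changes were -0.03 ± 0.10 and 0.39 ± 0.15, and neither passed the edgeR test (adjusted p = 0.901 and 0.097). They were -0.08 and 0.22 without GalNAc-siNC mouse 1. Mrpl36 was paired with Ndufs6, a complex I subunit gene, with start sites 29 bases apart and 30 shared exon bases. Their log2 fold changes of 0.29 and 0.39 ± 0.19 also did not pass (adjusted p = 0.0768 and 0.273).

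Levels were compared between genes as TPM, the share of a library's transcripts once each count is divided by the deposited length of its gene model. The most abundant member was Mrpl12, which encodes a protein of the flexible stalk of the large subunit that recruits translation factors. It averaged 132 TPM over the 6 mice, above 94.7% of the tested genes. Next in mean TPM were Mrpl34 at 76.9, Mrps7 at 74.5, Mrps21 at 74.0 and Mrpl2 at 71.9. Mrps7 binds the rRNA in the head of the small subunit and Mrpl2 lies near the peptidyl transferase centre of the large subunit. The last 4 lay closer together than the spread between mice of Mrps7 alone (74.7 ± 13.6 TPM in GalNAc-siNC, SD, n = 3). At the other end, Mrpl33 averaged 2.51 TPM, Mrps25 3.26, Mrps30 4.27, Mrps6 5.14 and Mrpl19 5.56. The deposited lengths of Mrpl33, Mrps25 and Mrps30 are 7326, 6576 and 6666 bases, against 1532 for Mrpl12. With the length of the longest transcript in place of the gene model, Mrpl12 was still the most abundant (129 TPM), and the same 5 genes were the lowest, with Mrps25 at 2.96 TPM the lowest of them. Mrps25 and Mrpl19 share 69.8% and 36% of their length with Nr2c2 and Gcfc2 on the opposite strand. Mrps6 shares 19.9% with Gm49711 and 10.4% with Slc5a3 on its own strand. How reads in shared exons were counted is not given, so the low levels of Mrps25, Mrpl19 and Mrps6 are uncertain. The next highest were then Mrpl38 at 94.4, Mrps21 at 93.8, Mrpl20 at 93.6 and Mrpl14 at 76.99 TPM.

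**Figure D1:**
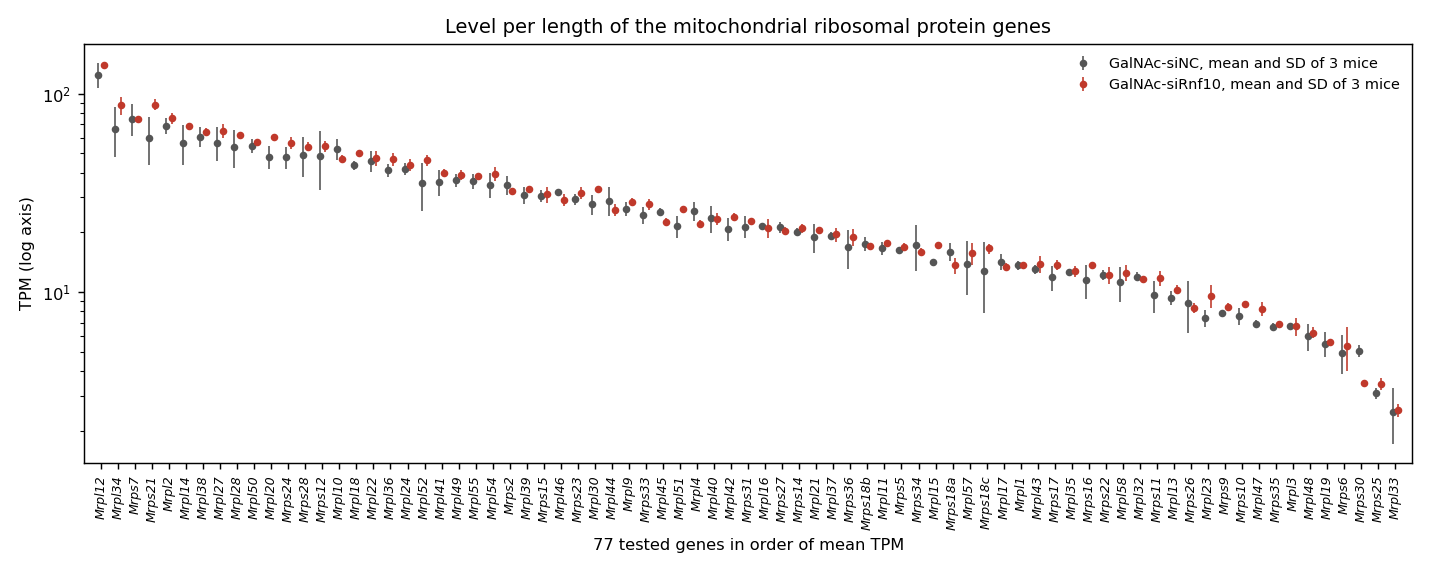
TPM (level per length, log axis) of the 77 tested mitochondrial ribosomal protein genes, ordered from the highest mean to the lowest, with the mean and SD of the 3 GalNAc-siNC mice in grey and of the 3 GalNAc-siRnf10 mice in red. Mean levels run from 132 TPM for Mrpl12 to 2.51 TPM for Mrpl33, and the control error bars are the wider ones for many genes.

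Summed over the members, the level was 1875, 2237 and 2277 TPM in the GalNAc-siNC mice and 2334, 2376 and 2286 TPM in the GalNAc-siRnf10 mice. The 3 treated mice were above every control mouse, but GalNAc-siNC mouse 3 and GalNAc-siRnf10 mouse 3 differed by less than the treated mice did among themselves and GalNAc-siNC mouse 1 was far below every other library. The group means were 2129 ± 222 and 2332 ± 45.2 TPM (SD, n = 3). The summed level of the large subunit over that of the small subunit was 2.54, 2.42 and 2.44 in the control mice and 2.38, 2.46 and 2.47 in the treated mice, so the ratio of the subunits overlapped between the groups. In raw terms the members took 0.166% to 0.202% of all counts in the control mice and 0.204% to 0.212% in the treated mice.

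Tested one by one, 8 members rose and 1 fell in the livers of the GalNAc-siRnf10 mice. The 8 that rose, at an adjusted p under 0.05 in edgeR's quasi-likelihood test, were Mrpl15, Mrpl18, Mrpl20, Mrpl23, Mrpl30, Mrpl47, Mrpl51 and Mrps10, by 1.23- to 1.39-fold. Mrps30 fell, to 0.736 of the control mean. The 8 were 10.4% of the 77 tested members, where 6.71% of all 14046 tested genes were called higher. The 1 was 1.30% of the members, where 7.28% of all tested genes were called lower. With 1 mouse left out, 11, 4 and 20 members were called higher without GalNAc-siNC mouse 1, 2 and 3, and 1, 2 and 3 without GalNAc-siRnf10 mouse 1, 2 and 3. As shares of the tested members these were 14.3%, 5.19%, 26.0%, 1.30%, 2.60% and 3.90%, where 9.73%, 5.56%, 6.91%, 3.59%, 3.77% and 3.77% of all tested genes were called higher in the same fits. The members' share was thus below the share of all genes, or near it, without GalNAc-siNC mouse 2 and without any of the treated mice. Most members leaned upward without passing the test. The estimate was above 0 for 69 of the 77, with a median log2 fold change of 0.21 over the members and 0.002 over all tested genes. In 30 members every GalNAc-siRnf10 mouse lay above every GalNAc-siNC mouse (39.0%, against 16.5% of all tested genes), and in 2, Mrps30 and Mrpl45, every treated mouse lay below (2.60%, against 16.4%).

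**Figure D2:**
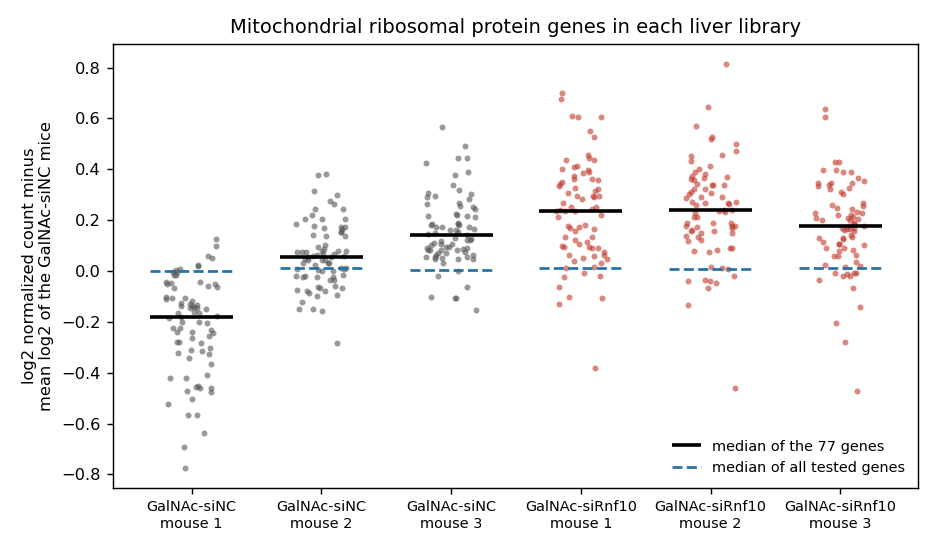
Each point is 1 of the 77 tested members in 1 mouse, as its log2 normalized count minus the mean log2 of the 3 GalNAc-siNC mice; the black line is the median of the members and the dashed blue line that of all tested genes. The members' medians are -0.18, 0.05 and 0.14 in the GalNAc-siNC mice and 0.24, 0.24 and 0.18 in the GalNAc-siRnf10 mice, while the medians of all genes stay within 0.02 of 0.

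The size of these differences was small and for most members bounded. The 95% interval of the log2 fold change lay wholly above 0 for 30 members and wholly below 0 for 1. It lay within 0.5 of 0 on either side for 44 members and within 0.25 for 6. A difference beyond 0.5 on the log2 scale was therefore outside the interval for those 44 members, whereas smaller differences were not detectable for many of them with 3 mice per group.

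**Figure D3:**
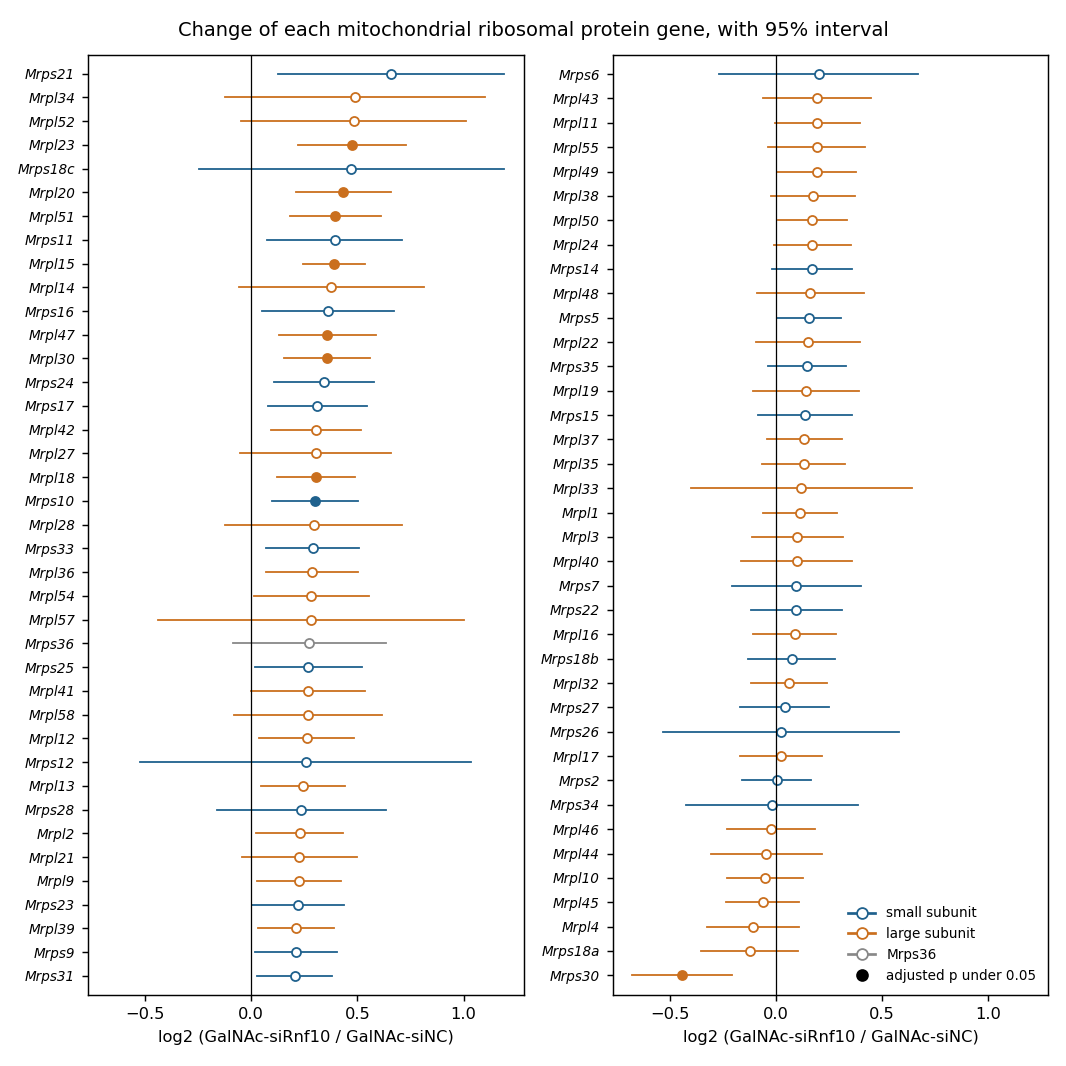
Log2 fold change (GalNAc-siRnf10 over GalNAc-siNC) of the 77 tested members with its 95% interval from the edgeR fit, with small-subunit genes in blue, large-subunit genes in orange and Mrps36 in grey; filled points passed the test at an adjusted p under 0.05. The filled points are 7 large-subunit genes and Mrps10 on the right of 0 and Mrps30 on the left, and the estimates run from -0.44 to 0.66.

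In the small subunit, 1 of the 26 genes rose (3.85%) and none fell, beside 6.71% and 7.28% of all tested genes. The median log2 fold change was 0.21. Without GalNAc-siNC mouse 1 the median was 0.13. In that fit 3 genes were called higher and none lower, where 9.73% of all tested genes were called higher. With all mice there were 12 at an unadjusted p under 0.05, all of them higher, and DESeq2 called 3 higher and none lower. Over all 14046 tested genes, 3754 had an unadjusted p under 0.05, of which 1815 had the interval above 0, and DESeq2 called 954 higher. The gene that rose, Mrps10, encodes a conserved protein of the head of the small subunit and lies at chr17:47368887-47381417 on the plus strand (GRCm38). It was at 659.0, 686.9 and 844.8 normalized counts in the GalNAc-siNC mice and at 931.4, 870.1 and 895.6 in the GalNAc-siRnf10 mice. Every treated mouse was above the highest control mouse. The log2 fold change was 0.30 ± 0.10 (adjusted p = 0.0472), the nearest to the threshold of the called genes, and the call was lost on leaving out any mouse except GalNAc-siNC mouse 3 (log2 fold change 0.22 to 0.41 over all alternatives).

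Mrps12, whose protein sits at the decoding site of the small subunit, did not pass the test. It was at 357.8, 717.8 and 750.9 normalized counts in the GalNAc-siNC mice and at 767.5, 741.0 and 666.7 in the GalNAc-siRnf10 mice. GalNAc-siNC mouse 1 held less than every other library, and the remaining 5 mice overlapped. The log2 fold change was 0.26 ± 0.30 (interval -0.52 to 1.04, adjusted p = 0.664), and it turned to -0.020 without GalNAc-siNC mouse 1. Mrps21, a small-subunit protein with a bacterial counterpart, had the largest estimate of any member. It was at 374.3, 518.8 and 699.6 normalized counts in the control mice and at 821.7, 903.5 and 781.7 in the treated mice. The groups did not overlap, but the spread among control mice was wide, and the log2 fold change of 0.66 ± 0.22 did not pass (adjusted p = 0.111). Without GalNAc-siNC mouse 1 it passed, at 0.45 (adjusted p = 0.000661). Mrps7 was at 1453, 2206 and 1895 against 1986, 1981 and 1963 normalized counts, with all treated mice inside the control range and a log2 fold change of 0.10 ± 0.13 (adjusted p = 0.705), which was -0.05 without GalNAc-siNC mouse 1.

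In the large subunit, 7 of the 50 tested genes rose (14%) and 1 fell (2%), beside 6.71% and 7.28% of all tested genes. The median log2 fold change was 0.19. Without GalNAc-siNC mouse 1 the median was 0.11, with 8 genes called higher and 1 lower. That fit called 9.73% of all tested genes higher. Mrpl15, a core protein with a bacterial counterpart (chr1:4773206-4785739, minus strand), had the smallest adjusted p of the members. It was at 1396, 1416 and 1502 normalized counts in the GalNAc-siNC mice and at 1943, 1850 and 1852 in the GalNAc-siRnf10 mice. The lowest treated mouse was above the highest control mouse, and GalNAc-siNC mouse 1 was close to mouse 2. The log2 fold change was 0.39 ± 0.07 (adjusted p = 0.000934). It was the only member called in all 16 other settings tried, among them every fit that left out a mouse, with an estimate between 0.30 and 0.42.

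Mrpl20, which in bacteria binds rRNA early in assembly of the large subunit, was at 781.7, 985.0 and 1110 normalized counts in the control mice and at 1292, 1340 and 1250 in the treated mice (log2 fold change 0.43 ± 0.10, adjusted p = 0.0118; chr4:155802878-155809975, plus strand). Mrpl30, also with a bacterial counterpart, was at 897.5, 1078 and 1233 against 1387, 1362 and 1356 (0.36 ± 0.10, adjusted p = 0.0194; chr1:37890477-37898535, plus strand). Mrpl51, which has no bacterial counterpart, was at 874.9, 1013 and 1228 against 1371, 1341 and 1383 (0.40 ± 0.10, adjusted p = 0.0153; chr6:125191801-125196269, plus strand). In these 3 genes the groups did not overlap, GalNAc-siNC mouse 1 was the lowest of the 6 libraries and GalNAc-siNC mouse 3 was the nearest to the treated mice. All were still called without mouse 1, by edgeR. Mrpl51 and Mrpl30 lost the call when GalNAc-siNC mouse 2 or any treated mouse was left out, and Mrpl20 when GalNAc-siNC mouse 2 or GalNAc-siRnf10 mouse 1 or 2 was left out. With offsets for GC content and length, Mrpl30 and Mrpl51 missed the threshold (0.31 and 0.38, adjusted p = 0.0704 and 0.0707).

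Mrpl47, which has a bacterial counterpart, was at 336.0, 357.9 and 397.2 normalized counts in the control mice and at 431.8, 503.9 and 461.1 in the treated mice (0.36 ± 0.11, adjusted p = 0.0355; chr3:32725397-32737605, minus strand). The groups did not overlap. Mrpl47 lost the call without GalNAc-siNC mouse 2 or any of the treated mice. With offsets for GC content and length and without GalNAc-siNC mouse 1, its edgeR adjusted p was 0.0547 (log2 fold change 0.27). Its exons share 616 bases with Ndufb5 and 452 bases with Actl6a on the opposite strand, at mean counts of 1384 and 426.2, and the strand setting of the counting is not given in the sources used here, so its value is uncertain. The same holds for Mrpl18, which shares 141 bases with the strongly expressed chaperonin gene Tcp1 on the other strand (mean count 3601). The other 6 genes that rose overlap no gene with a count.

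**Figure D4:**
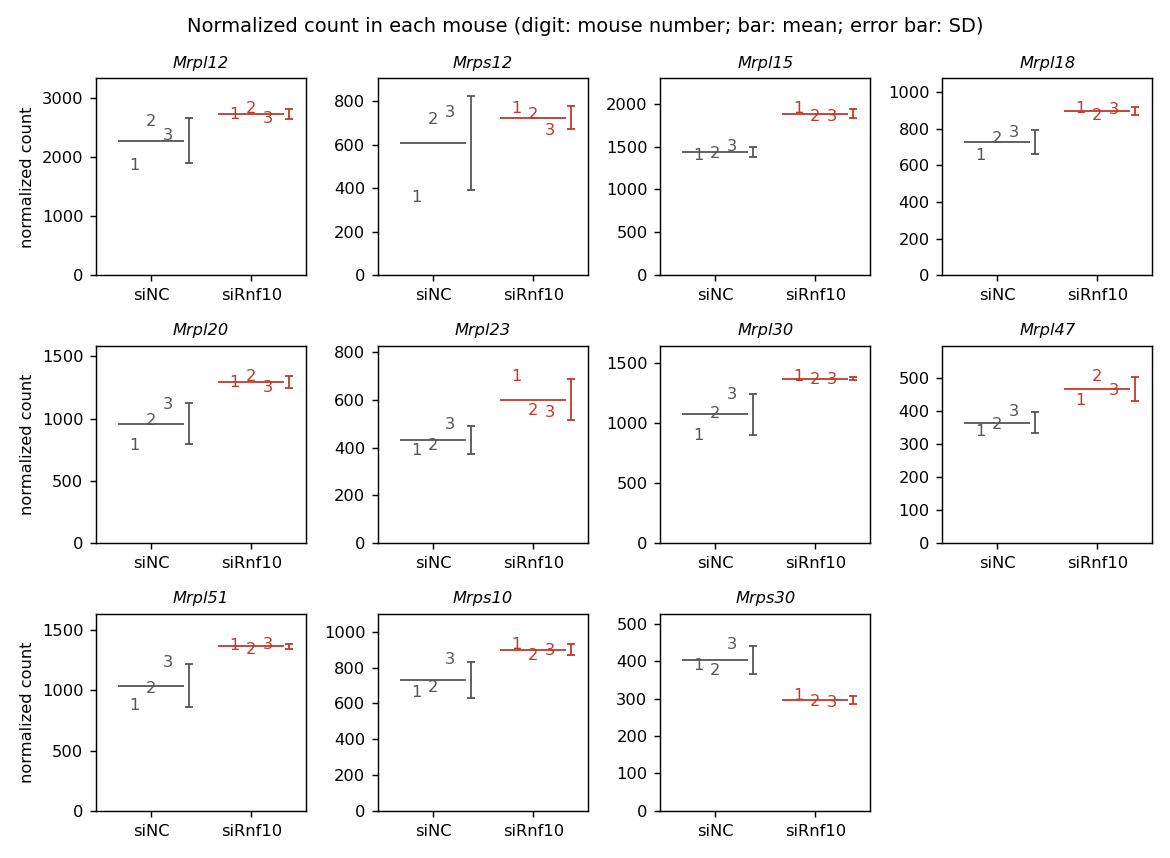
Normalized counts per mouse of the marker genes Mrpl12 and Mrps12, the 8 members that rose and Mrps30, which fell; digits give the mouse number, horizontal bars the group mean and error bars the SD of 3 mice. In the 9 called genes the groups do not overlap, whereas for Mrps12 only GalNAc-siNC mouse 1, at 357.8, lies away from the other mice.

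The parts of the large subunit that handle factors, the new chain and the contacts between subunits were read separately. The stalk is made by Mrpl10, Mrpl11 and Mrpl12, and none of them passed the test in edgeR or in DESeq2, with 1 at an unadjusted p under 0.05. Mrpl12, which is also known to bind the mitochondrial RNA polymerase, was at 1866, 2610 and 2377 normalized counts in the GalNAc-siNC mice and at 2724, 2829 and 2658 in the GalNAc-siRnf10 mice. Every treated mouse was above every control mouse, by little in the case of GalNAc-siRnf10 mouse 3 over GalNAc-siNC mouse 2. The log2 fold change was 0.26 ± 0.10 (interval 0.04 to 0.49, adjusted p = 0.121), and it passed the test in 6 of the 16 other settings. It was 0.13 without GalNAc-siNC mouse 1 (adjusted p = 0.114). Mrpl11 had a log2 fold change of 0.19 ± 0.09 (adjusted p = 0.201), which was 0.12 without that mouse, and Mrpl10 one of -0.05 ± 0.09 (adjusted p = 0.745).

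With all mice, 6.71% of all tested genes were called higher, so single calls in the short lists that follow are not read as results about them. Of the 7 genes listed for the exit tunnel, through which the new protein leaves, 1 rose, Mrpl23. Mrpl47, whose bacterial counterpart lies beside that of Mrpl23 at the tunnel's end, was not on this list and is the gene given above as having risen. Mrpl23 was at 389.1, 409.5 and 497.0 normalized counts in the control mice and at 698.5, 555.5 and 545.3 in the treated mice, without overlap and with the highest value in GalNAc-siRnf10 mouse 1 (0.47 ± 0.12, adjusted p = 0.0134; chr7:142532686-142540747, plus strand). It lost the call without that mouse or without GalNAc-siNC mouse 2, with adjusted p-values up to 0.121 over the alternatives. In the central protuberance, which faces the small subunit, 1 of 5 genes rose. This was Mrpl18, at 654.6, 747.8 and 778.6 against 909.9, 873.0 and 906.3 normalized counts (0.30 ± 0.09, adjusted p = 0.0268; chr17:12911349-12916345, minus strand), also without overlap. It lost the call on leaving out any of the treated mice, and with all mice but offsets for GC content and length it was not called either (0.14, adjusted p = 0.183), nor with these offsets and without GalNAc-siNC mouse 1 (0.12, adjusted p = 0.294).

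Mrps30 went the other way. Its protein belongs to the large subunit despite the name and has no bacterial counterpart, and the gene lies at chr13:118378381-118387252 on the minus strand. It was at 389.1, 375.4 and 445.6 normalized counts in the GalNAc-siNC mice and at 308.6, 292.6 and 289.7 in the GalNAc-siRnf10 mice. All treated mice were below all control mice, and GalNAc-siNC mouse 1 lay between its group mates. The log2 fold change was -0.44 ± 0.11 (interval -0.68 to -0.21, adjusted p = 0.0124), and -0.47 without GalNAc-siNC mouse 1 (adjusted p = 0.002425). The call was lost without GalNAc-siNC mouse 3 and without GalNAc-siRnf10 mouse 2 or 3. A gene on the opposite strand that shares 623 bases with it, B430218F22Rik, had a mean count of 0.17. The next smallest estimates were those of Mrps18a (-0.12 ± 0.11) and of Mrpl4 (-0.11 ± 0.10), and neither passed the test (adjusted p = 0.515 and 0.548). Without GalNAc-siNC mouse 1 they were -0.23 and -0.22 (adjusted p = 0.0735 and 0.0562).

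The most and the least abundant members were read next. None of the 5 members with the highest TPM was called in the main edgeR fit. With offsets for GC content and length, Mrpl12, Mrpl34 and Mrps21 passed (edgeR adjusted p = 0.0092, 0.0451 and 0.0133). DESeq2 also called Mrps21 (adjusted p = 0.000841), whereas Mrpl2 and Mrps7 were called in 0 of the 16 other settings. Mrpl34 was at 325.6, 494.0 and 637.3 normalized counts against 713.2, 732.4 and 592.1 (log2 fold change 0.49 ± 0.25, adjusted p = 0.281), with GalNAc-siRnf10 mouse 3 inside the control range. Mrpl2 was at 819.1, 1000 and 1070 against 1079, 1211 and 1087, without overlap (0.23 ± 0.10, adjusted p = 0.134). Among the 5 with the lowest TPM only Mrps30 was called. Mrpl52, which has no bacterial counterpart and the third largest estimate, was at 321.2, 479.6 and 610.6 against 692.9, 675.0 and 598.5 (0.48 ± 0.22, adjusted p = 0.225), and it overlapped in the same way as Mrpl34. DESeq2 with all mice did call Mrpl52 higher (adjusted p = 0.0333). Without GalNAc-siNC mouse 1, Mrpl34 was at 0.26, Mrpl52 at 0.26 and Mrpl2 at 0.12, and none of them passed the test (adjusted p = 0.0723, 0.0613 and 0.311). By origin, 7 of the 46 members with a bacterial counterpart rose and none fell. At an unadjusted p under 0.05 there were 19, all of them higher, and DESeq2 called 9 higher. Over all 14046 tested genes, 6.71% were called higher by edgeR, 1815 had the interval above 0 and DESeq2 called 954 higher. Of the 30 tested members specific to mitochondria, 1 rose and 1 fell. The median log2 fold changes were 0.23 and 0.17, and 0.12 and 0.08 without GalNAc-siNC mouse 1, when 7 and 4 were called higher. The difference between the groups of origin was not tested.

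The members' fold changes were computed again without GalNAc-siNC mouse 1. It was the lowest of the 6 libraries for 59 of the 77 members (76.6%), against 24.05% of all tested genes. Without it the median log2 fold change of the members fell from 0.21 to 0.12, and 62 in place of 69 estimates were above 0. The number that passed the test went from 8 to 11 higher, and 1 gene was called lower in both cases, Mrps30. Calls over all tested genes went up as well, from 943 (6.71%) to 1395 (9.73%) higher. Of the 9 genes called with all mice, 8 were called without it. All 3 treated mice were above both remaining GalNAc-siNC mice in 30 of the 77 members (39.0%), against 22.3% of all tested genes, and below both in 6, against 3135 of the 14046 tested genes.

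Gene length moved with the fold change in this comparison. Over all tested genes the median log2 fold change was 0.17 for gene models up to 1675 bases, 0.03 for those up to 3318 bases and -0.04 for longer ones. The members' medians were 0.28 (26 genes), 0.17 (25 genes) and 0.15 (26 genes) in the same length classes. With offsets for GC content and length in the fit, the median of the members was 0.14, with 13 higher and 1 lower, while the share of all tested genes called higher went to 8.76%. Of the 9 genes called without offsets, 6 were called with them, and Mrpl18, Mrpl30 and Mrpl51 were not. With these offsets and without GalNAc-siNC mouse 1, a combination chosen after seeing the data, the median was 0.07, 56 of 77 estimates were above 0, and 12 members were called higher (15.6%, against 10.5% of all tested genes) and 2 lower. The lower ones were Mrps30 and Mrpl44, a protein near the exit tunnel. Mrpl15, Mrpl20, Mrpl23, Mrpl30, Mrpl51 and Mrps10 were called higher under that combination as well, with Mrpl12 among the additional ones (log2 fold change 0.16, adjusted p = 0.0113).

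The partners of these proteins were read from fixed lists. The rRNAs of the mitochondrial ribosome, which are encoded in mitochondrial DNA, were both higher. mt-Rnr2, the rRNA of the large subunit, was at 11640, 9878 and 11259 normalized counts in the GalNAc-siNC mice and at 22179, 21612 and 22978 in the GalNAc-siRnf10 mice, a log2 fold change of 1.03 ± 0.06 (edgeR adjusted p = 5.77e-09). mt-Rnr1, the rRNA of the small subunit, was at 12655, 11493 and 13074 against 19476, 18728 and 20161 (0.65 ± 0.06, adjusted p = 6.87e-07). The groups did not overlap for either rRNA, and GalNAc-siNC mouse 1 lay with its group mates. With offsets for GC content and length the median log2 fold change of the 2 rRNAs was 0.63, against 0.84 without offsets. Both rRNAs were still called higher in that fit. The libraries were prepared from polyadenylated RNA, so these values count the rRNA that such a preparation captured. The shares of all tested genes called higher were 6.71% with all mice, 9.73% without GalNAc-siNC mouse 1 and 8.76% with the offsets. Of the 13 mRNAs encoded in mitochondrial DNA, which these ribosomes translate, 3 rose and none fell, among them mt-Nd3 (0.51 ± 0.11, adjusted p = 0.00292) and mt-Co2 (0.51 ± 0.12, adjusted p = 0.0264). Their median of 0.19 was 0.22 without GalNAc-siNC mouse 1 when 7 were called higher, and -0.05 with the offsets for GC content and length, when 1 was called higher and 4 of the 13 estimates were above 0.

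The lists that follow are short, and with all mice edgeR called 6.71% of all tested genes higher and 7.28% lower. Without GalNAc-siNC mouse 1 it called 9.73% higher. A single call in such a list is not read as a result about the list. Of 5 ribosomal proteins that do not carry the Mrp name, 1 rose, Chchd1 (0.45 ± 0.13, adjusted p = 0.0256). Among 26 factors that assemble the mitochondrial ribosome or modify its rRNA, 1 rose (3.85%) and none fell, with a median of 0.09. This was Mrm3, a methyltransferase of the large rRNA (0.43 ± 0.14, adjusted p = 0.0437). None of 14 mitochondrial translation factors and none of 20 mitochondrial tRNA synthetases passed the edgeR test in either direction. At an unadjusted p under 0.05 there were 1 and 0 of them, and DESeq2 called 0 in both lists. Without GalNAc-siNC mouse 1, 1 translation factor was called higher and 1 tRNA synthetase lower. The medians were 0.05 and 0.05, and the intervals of 13 of the 14 and 18 of the 20 genes lay within 0.5 of 0. Among 11 genes for the transcription and copying of mitochondrial DNA, 1 rose, Ssbp1, which binds single-stranded DNA there (0.32 ± 0.10, adjusted p = 0.0357), and 2 were called higher without GalNAc-siNC mouse 1. Among 9 nuclear regulators of mitochondrial genes, none rose and 1 fell. This was Myc, a transcription factor of growth genes, at 1226 ± 115 and 452 ± 38.3 normalized counts (SD, n = 3; -1.44 ± 0.10, adjusted p = 1.45e-08).

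Other nuclear genes for mitochondria and ribosomes are given side by side with the members. Over all tested genes, 6.71% were called higher with all mice. Of 75 nuclear subunits of the respiratory chain and ATP synthase, 27 (36.0%) rose and none fell, with a median log2 fold change of 0.45. Examples were Sdhb of complex II (0.48 ± 0.08, adjusted p = 0.00141), Ndufb6 of complex I (0.53 ± 0.10, adjusted p = 0.00145) and Atp5c1 of the ATP synthase (0.32 ± 0.06, adjusted p = 0.0012). Of 21 genes of the mitochondrial import machinery, 6 rose and none fell, with a median of 0.29 (0.17 without GalNAc-siNC mouse 1), among them Timm9 (0.51 ± 0.09, adjusted p = 0.00131) and Timm10 (0.82 ± 0.16, adjusted p = 0.00341), which form a chaperone of the intermembrane space. Of 78 cytosolic ribosomal protein genes, 9 (11.5%) rose and none fell, with a median of 0.36. Among those that rose were Rpl7 (0.33 ± 0.07, adjusted p = 0.00362) and Rps6 (0.28 ± 0.06, adjusted p = 0.00378). Of 15 genes of mitochondrial protein quality control and the integrated stress response, 1 rose, the asparagine synthetase gene Asns (0.57 ± 0.10, adjusted p = 0.000549), whereas 3 were called higher and 3 lower without GalNAc-siNC mouse 1. The same control mouse was low in the longer lists. In GalNAc-siNC mouse 1 the median deviation from the control mean was -0.34 for the respiratory chain genes and -0.39 for the cytosolic ribosomal protein genes, against -0.18 for the members. Without this mouse the respiratory chain median was 0.28 with 67 genes higher, and the cytosolic ribosomal median was 0.20 with 50 genes higher, in a fit that called 9.73% of all tested genes higher. With all mice, DESeq2 called 46 and 28 genes of these lists higher. The gene models of these lists were short, with median lengths of 1718 and 1775.5 bases, against 4122.5 over all tested genes. With offsets for GC content and length the medians were 0.32 and 0.25. In that fit edgeR called 38 and 13 genes higher, and 8.76% of all tested genes. With these offsets and without GalNAc-siNC mouse 1 the medians were 0.22 and 0.14. The lists share the same 6 mice, and the difference between them was not tested.

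**Figure D5:**
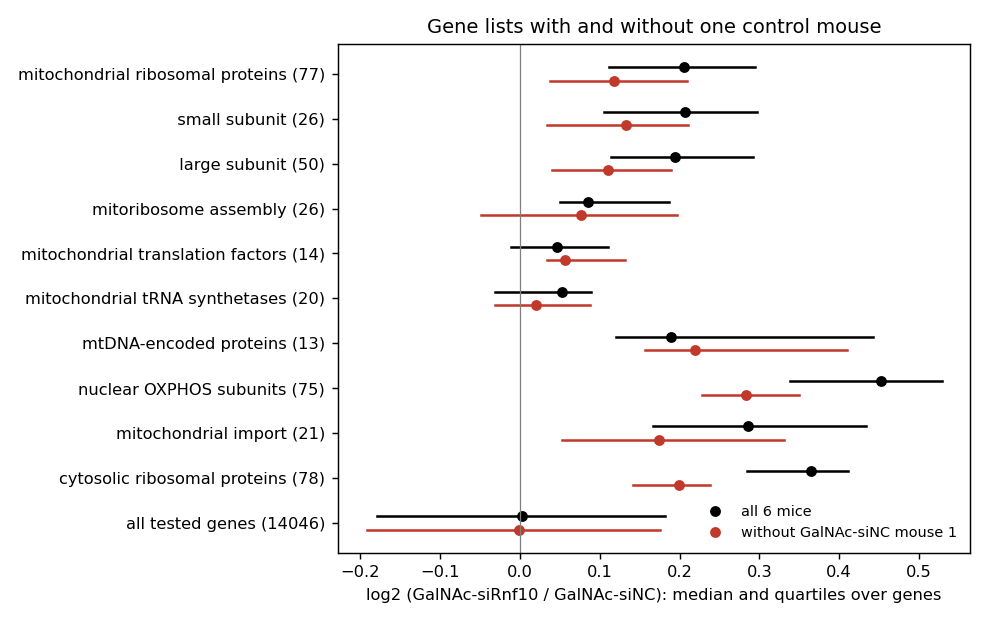
Median (points) and quartiles (lines) of the log2 fold change over the tested genes of each list, with the number of genes in parentheses, in black with all 6 mice and in red without GalNAc-siNC mouse 1. The median of the mitochondrial ribosomal protein genes moves from 0.21 to 0.12 and that of the respiratory chain subunits from 0.45 to 0.28, while that of all tested genes is 0.002 and -0.0006.

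Markers of liver cell types moved between the groups as well. Beside the calls given here, edgeR called 6.71% of all tested genes higher and 7.28% lower with all mice. Without GalNAc-siNC mouse 1 it called 9.73% higher. The summed level of 5 hepatocyte markers was 61832 to 66348 TPM in the GalNAc-siNC mice and 84796 to 86256 TPM in the GalNAc-siRnf10 mice. Of these markers, 3 were called higher by edgeR, and the lower quartile of their log2 fold changes was 0.11. All 5 estimates were above 0, and 3 of the 5 without GalNAc-siNC mouse 1. The summed level of 5 cholangiocyte markers was 96.3 to 103 and 50.02 to 50.27 TPM in the same groups. Of these 5, Spp1 was called lower by edgeR (log2 fold change -0.90 ± 0.07, adjusted p = 8.59e-08), the other 4 did not pass, and 3 of the 5 overlapped between the groups. The median log2 fold change of the cholangiocyte markers was -0.26. Without GalNAc-siNC mouse 1 it was -0.50, and 2 were called lower. Kupffer cell markers summed to 167 to 183 and 159 to 166 TPM. On the normalized counts their median log2 fold change was 0.11, with none of 5 called by edgeR or DESeq2. At an unadjusted p under 0.05 in edgeR there was 1, which was lower, and 2 were without overlap, both higher. Without GalNAc-siNC mouse 1 the median was 0.02 and 1 marker was called lower. The sums were, in TPM, for sinusoidal endothelial markers 29.0 to 29.8 and 32.1 to 33.9, and for stellate cell markers 39.6 to 44.0 and 45.0 to 49.2. Of the 5 endothelial markers, 2 were called higher by edgeR and 1 lay lower without overlap (log2 fold change -0.26). Without GalNAc-siNC mouse 1, 1 of them was called higher and 1 lower. Of the 5 stellate markers, 3 were called higher and 3 estimates were above 0, with the lowest at -0.27. Neutrophil markers summed to 4.68 to 9.57 TPM in the control mice and 2.50 to 2.94 TPM in the treated mice, and the 1 that was tested, S100a9, was called lower (-1.43 ± 0.38, adjusted p = 0.0171). Markers of T cells and B cells stayed under 2 TPM in every library, and those of erythroid cells ranged from 494 to 687 TPM in the control and 539 to 598 TPM in the treated mice. No marker on these lists was at 0 in every library. The TPM of all genes share a fixed sum, so the level of one gene on this scale depends on the levels of the others. The part of these cell markers in the members' differences was not tested.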

How the data were processed

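Liver RNA of 6 mice was measured by RNA-seq, with 1 library per mouse. Libraries were made with a stranded mRNA kit and read from both ends. The authors, per the labels, used HISAT2 and GRCm38. They deposited unnormalized counts per gene together with a gene length in bases. The counting tool, annotation release and strand setting are not given in the sources used here. Symbols and coordinates were matched to GENCODE M21 (GRCm38), whose gene spans were the same for 54907 of the 55487 genes, and 260 genes had no symbol.

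From these counts, edgeR 4.0.16 in R 4.3.3 was run on the whole table (filterByExpr by group, TMM, estimateDisp, robust quasi-likelihood F-test, treatment as the only term), with Benjamini-Hochberg adjustment over all 14046 tested genes and a call at an adjusted p under 0.05. Fold changes are GalNAc-siRnf10 over GalNAc-siNC, ± is the SE of a log2 fold change or the SD of a level, and intervals are 95%. Groups came from the treatment labels. Permutation of 3 against 3 mice cannot go below p = 0.1, so no single-gene permutation test is given. Alternatives were run with DESeq2 1.42.0 and limma 3.58.1. The edgeR step was tested on simulated counts. The mice are separate animals.

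Genes named are the markers Mrpl12 and Mrps12, called members, the 5 highest and 5 lowest by TPM, the 3 largest and 3 smallest fold changes, untested members, Rnf10, and at most 4 called genes per other list. Mrpl10, Mrpl11, Mrpl14, Mrpl36, Mrpl38, Mrpl44, Mrpl45, Mrpl46, Mrps11, Mrps18b, Mrps36, Gabpa, Yy1, Nrf1 and the neighbouring genes fall outside this rule and were chosen after seeing their values. The members and all lists were chosen with earlier results of these data known. Protein sequences were not used here.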

Additional observations from a re-analysis of the deposited data

How the results depend on the processing

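The direction of the members' median held in every alternative tried, from 0.07 to 0.27 on the log2 scale, while the number of calls depended on the setting. Members called higher, 8 with all mice, were 22 with no filter on low counts, 13 with GC and length offsets and 14 with these offsets and the replicate block, and 15 and 1 at adjusted p thresholds of 0.1 and 0.01. Leaving out 1 mouse at a time gave 1 to 20 higher and 0 to 1 lower; the lowest count was without GalNAc-siRnf10 mouse 1 and the highest without GalNAc-siNC mouse 3, and without GalNAc-siNC mouse 2 it was 4. Without GalNAc-siRnf10 mouse 2 or 3 it was 2 and 3. Members called lower, 1 with all mice, were 2 with the offsets and no GalNAc-siNC mouse 1 (chosen after seeing the data) and 0 at an adjusted p threshold of 0.01; at an unadjusted p under 0.05 edgeR had 31 members in either direction, and DESeq2 called 11 higher and 1 lower. With RLE or upper quartile scaling, with at least 10 counts in every library, and with limma voom the counts stayed within 1.5 times (8 to 10 higher, 1 lower).

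Some estimates changed sign. Over the 16 other settings, 6 values of members under the naming rule and 42 values of other members were reversed. The 6 are given here. Without GalNAc-siNC mouse 1, Mrpl33 was at -0.12, Mrps12 at -0.020 and Mrps7 at -0.054, and with the offsets in addition Mrpl33 was at -0.14 and Mrps12 at -0.023. Without GalNAc-siRnf10 mouse 1, Mrps6 was at -0.024. Over the fits that left out 1 mouse, the highest estimates of these genes were 0.39 for Mrpl33, 0.44 for Mrps12, 0.24 for Mrps7 and 0.41 for Mrps6. None of these genes was called with all mice, and apart from the left-out mouse the cause was not tested. The replicate number is shared between groups as a label. The correlation of deviations between mice of the same number was -0.003, 0.02 and -0.03. No shared effect was seen, but these values cannot show whether the animals were paired. A fit with the replicate block gave 8 higher and 1 lower with a median of 0.21, and 8 of the 9 calls were kept. With 3 mice per group, differences under about the interval of each gene were not detectable.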

Other observations

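The 5 pseudogene names left out of the group (Mrpl23-ps1, Mrpl48-ps, Mrps36-ps1, Mrps36-ps2 and Mrps36-ps3) held at most 16, 21, 2, 3 and 0 counts in any library, and none was tested. Mrpl53, the untested member, shares 695 bases (88.0% of its length) with Gm42688 on the same strand, which had a mean count of 10.3. Of the protein-coding genes that start head to head with a member, Ppp1r10, a regulatory subunit gene of protein phosphatase 1 that starts 45 bases from Mrps18b, was higher in the GalNAc-siRnf10 mice (1185 ± 13.7 and 1989 ± 145 normalized counts, SD, n = 3; log2 fold change 0.75 ± 0.07, edgeR adjusted p = 1.85e-06), while Mrps18b had a log2 fold change of 0.07 ± 0.10 (adjusted p = 0.688). Mitd1, which starts 66 bases from Mrpl30, had a log2 fold change of -0.33 ± 0.13 (adjusted p = 0.0952) beside the rise of Mrpl30. Whether the members of such pairs differ was not tested.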
